A study of Rattus norvegicus with 6 samples.

Results

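The genes described are the Toll-like receptors Tlr1, Tlr2, Tlr3, Tlr4, Tlr6, Tlr7, Tlr8 and Tlr9, the co-receptor Cd14 and the adaptor Myd88, in the ipsilateral lumbar spinal cord of rats with bone cancer pain (BCP) and of sham-operated rats. They were chosen by name, as the rows of the gene table that carry one of these 10 symbols. Of the 30957 genes in the table, 9 were such members. Tlr1 had no row under that name and was not analysed as a member, but the row named Tlr10 may cover it. All 9 passed the filter on low counts, which left 14908 genes to test. Tlr8, with raw counts of 4, 6 and 17 in sham libraries, passed through its BCP counts.

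Total RNA was sequenced in 6 libraries from female Wistar rats, 3 from BCP rats and 3 from sham-operated rats, on day 14 after inoculation. BCP rats had received living Walker 256 cells, a rat mammary carcinoma line, in the marrow cavity of the left tibia, and heat-killed cells of the line were placed there in sham-operated rats. Both groups therefore shared the injection and the opened bone, and no uninjected animal was part of the comparison. The tissue was the ipsilateral side of the lumbar enlargement without its meninges, so each value is an average over neurons, glia, vessels and any blood cells in the piece.

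The counts on genes ranged from 13366905 to 15004290 in the sham and from 11779485 to 13764758 in the BCP libraries, and members had 4 to 914 counts in a library. Each pair of libraries within a group differed beyond sampling noise, at a chi-square of 3.61 to 6.33 per degree of freedom. The labels do not say that each library came from a separate animal, so the p-values measure the spread between these samples. Sham library 3 stood apart in Cxcl10 and Irf7, genes singled out after their values were seen, with a Cxcl10 level of 3.24 CPM against 34.2 and 18.0 in the other sham libraries, and with Irf7 counts of 543 against 1737 and 1706.

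Toll-like receptors are membrane proteins of the innate immune system that bind parts of microbes or material released from damaged cells. Some sit at the cell surface and recognise lipids and proteins, and others sit in endosomes and recognise nucleic acids. All except Tlr3 can signal through the adaptor Myd88, which recruits kinases of the Irak family and leads to activation of NF-kappa-B and of interferon regulatory factors. In the spinal cord these receptors are best known from microglia, the resident macrophages of the central nervous system, although astrocytes and neurons can express some of them.

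Of the 9 members, 8 rose in BCP rats and 0 fell, by log2FC of 1.49 for Tlr3 to 3.32 for Tlr8, and Tlr6 was not called. A gene was called when its adjusted p-value was under 0.05 and its log2FC, the log2 of the BCP level over the sham level, was over 1 in size. By that rule 6.35% of all tested genes were called higher and 0.107% were called lower. The median log2FC of the members was 1.65, beside -0.01 for all tested genes. In the same 8 members every BCP library lay above every sham library, an ordering seen in 21.7% of all tested genes. Without sham library 3 the same 8 members were called, and with at least 10 counts required in every library Tlr8 was not tested and 7 members rose. Tlr8 had reached the test through its BCP counts, and the log2FC of those 7 ran from 1.49 to 2.59. Because the samples are whole tissue, a larger number of cells that express these genes and more RNA per cell cannot be told apart.

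Promoter sequence is shown for the 3 members in which a searched motif was found, since these are the members whose start regions differ from the rest in this respect. The 250 bases before the RefSeq start were taken for all 10 symbols from the GRCr8 assembly, which is not the Rnor_6.0 build of the expression files, and are printed 5′ to 3′ in the direction of the gene with the matches in capitals. The capitals in Myd88 (chr8:127956231-127956480, minus strand) mark TGAATCA, a form of the AP-1 word TGANTCA, and TTCTCGGAAAGCGAAA, in which the STAT word TTCNNNGAA and the interferon regulatory factor word GAAANNGAAA overlap. The capitals in Tlr2 (chr2:171504558-171504807, minus strand) mark a pair of overlapping matches to the NF-kappa-B consensus, and those in Tlr9 (chr8:115743157-115743406, plus strand) mark another AP-1 word.
Myd88: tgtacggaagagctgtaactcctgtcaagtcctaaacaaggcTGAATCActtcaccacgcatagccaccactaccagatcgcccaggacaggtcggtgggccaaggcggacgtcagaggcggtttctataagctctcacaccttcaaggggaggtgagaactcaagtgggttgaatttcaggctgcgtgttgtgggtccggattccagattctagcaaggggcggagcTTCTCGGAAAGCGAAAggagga
Tlr2: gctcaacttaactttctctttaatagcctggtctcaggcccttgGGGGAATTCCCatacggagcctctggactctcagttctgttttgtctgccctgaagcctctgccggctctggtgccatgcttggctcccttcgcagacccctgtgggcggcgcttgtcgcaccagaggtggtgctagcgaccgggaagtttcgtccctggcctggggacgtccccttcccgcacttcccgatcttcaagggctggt
Tlr9: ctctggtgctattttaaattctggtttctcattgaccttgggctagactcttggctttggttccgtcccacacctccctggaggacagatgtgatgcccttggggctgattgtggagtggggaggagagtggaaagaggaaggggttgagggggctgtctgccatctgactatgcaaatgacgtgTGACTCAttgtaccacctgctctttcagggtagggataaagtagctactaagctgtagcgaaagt

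The search covered both strands for 5 motifs, the 4 named above and the PU.1 word GAGGAAGT. In Myd88 the interferon regulatory factor word began 16 bases before the start and the STAT word 22 bases before it. Over 33469 rat promoters cut to the same length, 3.54% held the NF-kappa-B consensus, 3.41% the interferon regulatory factor word, 7.67% the STAT word, 6.34% the AP-1 word and 2.04% the PU.1 word. Among the 10 members the NF-kappa-B consensus, the interferon regulatory factor word and the STAT word were each found in 1 promoter, the AP-1 word in 2 and the PU.1 word in 0. The other 7 promoters held none of these letters in this window, which says nothing about binding elsewhere. Member promoters ranged in GC content from 33.6% to 60%, with a median of 48.6%, beside a median of 51.2% over all promoters. A match is a description of the sequence and not a measured binding site.

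The RNA of the surface receptors Tlr2 and Tlr4 and of the co-receptor Cd14 rose 2.97-fold to 3.63-fold, while Tlr6 did not pass the test. Tlr2 (ENSRNOG00000009822, chr2:182840727-182846061 on Rnor_6.0) recognises bacterial lipoproteins together with a partner receptor. Its normalized count (CPM, the count scaled to the TMM library size) was 4.27, 3.14 and 4.39 in sham libraries 1 to 3 and 14.0, 12.1 and 16.8 in BCP libraries 1 to 3. The groups did not overlap, and the lowest BCP library was 2.75 times the highest sham library. The fitted change was 3.63-fold (log2FC 1.86 ± 0.17, SE, edgeR adjusted p = 8.27e-08).

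Tlr6 (ENSRNOG00000002161, chr14:45033309-45046446) is a partner of Tlr2 for diacylated lipoproteins. It had CPM of 3.58, 4.33 and 2.57 in sham and 3.89, 5.72 and 5.07 in BCP libraries. The groups overlapped, since BCP library 1 lay below sham library 2. The log2FC was 0.49 ± 0.23 (SE), with an edgeR adjusted p of 0.127. In RefSeq, Tlr1, the other partner of Tlr2, is the 1 gene between Tlr6 and Tlr10, receptors of closely related sequence. The table had 0 rows in the 16215 bases between its Tlr6 and Tlr10 rows. Its Tlr10 row spanned 19330 bases, from 45062662 to 45081991. In GRCr8 the promoter windows of Tlr6, Tlr1 and Tlr10 begin at 43715559, 43747571 and 43764772. Laid from the start of the Tlr6 row, that spacing puts the Tlr1 start inside the row named Tlr10 and not in the gap. The same spacing puts the Tlr10 start just past the end of that row. The builds differ and were not aligned, so these positions are approximate. Whether that row covers Tlr1, Tlr10 or both was not tested. Whether reads of Tlr1 were counted under a neighbour was not tested, and how the counting treated reads that match several of these genes is not given in the sources used here.

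Tlr4 (ENSRNOG00000010522, chr5:82587420-82601052) is the receptor for bacterial lipopolysaccharide. Its CPM was 7.32, 7.26 and 7.77 in sham and 21.1, 18.8 and 26.6 in BCP libraries, so the sham libraries were nearly level and BCP library 3 was the highest. The change was 2.97-fold (log2FC 1.57 ± 0.14, SE, edgeR adjusted p = 2.92e-08). Cd14 (ENSRNOG00000017819, chr18:29560365-29562153) passes lipopolysaccharide to Tlr4 and also serves other receptors of the family. It had CPM of 1.98, 3.0 and 1.35 in sham and 5.50, 7.0 and 6.74 in BCP libraries, with no overlap and a spread of more than 2-fold among the sham libraries. The change was 3.04-fold (log2FC 1.60 ± 0.25, SE, edgeR adjusted p = 5.82e-05).

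The nucleic acid receptors held both the members with the highest levels and the members with the largest fold changes. Tlr3 (ENSRNOG00000021726, chr16:50016857-50031214) recognises double-stranded RNA and signals through the adaptor Ticam1 and not through Myd88. Its CPM was 24.4, 25.2 and 17.9 in sham and 54.7, 64.8 and 69.2 in BCP libraries. The groups were apart, and the change was 2.80-fold (log2FC 1.49 ± 0.13, SE, edgeR adjusted p = 2.72e-05), the smallest among the members that rose.

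Tlr7 (ENSRNOG00000004249, chrX:28486869-28512957) and Tlr8 (ENSRNOG00000045992, chrX:28539158-28562803) recognise single-stranded RNA and lie beside each other on the X chromosome. Tlr7 had CPM of 13.6, 8.66 and 8.18 in sham and 52.6, 60.5 and 68.2 in BCP libraries, and sham library 1 was the highest of its group. It rose 6.0-fold (log2FC 2.59 ± 0.20, SE, edgeR adjusted p = 1.48e-04). Tlr8 rested on few reads in sham rats, with raw counts of 4, 6 and 17, against 76, 84 and 91 in BCP rats. In CPM these were 0.305, 0.419 and 1.15 in sham and 6.43, 6.0 and 6.89 in BCP libraries. Sham library 3 was well above the other sham libraries, and the lowest BCP library was still 5.23 times as high. The fitted change of Tlr8 was 9.98-fold (log2FC 3.32 ± 0.32, SE, edgeR adjusted p = 1.24e-07), with the largest SE of the members. Without sham library 3, which held 17 of the 27 sham counts, its log2FC was 4.11.

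Tlr9 (ENSRNOG00000048161, chr8:114916122-114920171) recognises DNA with unmethylated CpG. Its CPM was 2.82, 2.37 and 3.51 in sham and 14.8, 14.7 and 16.3 in BCP libraries. The BCP libraries were close together, and all were above the sham libraries. Tlr9 rose 5.23-fold (log2FC 2.39 ± 0.17, SE) and had the smallest adjusted p of the members (edgeR, 1.41e-09). Myd88 (ENSRNOG00000013634, chr8:128022473-128026841), the adaptor shared by these receptors other than Tlr3, had CPM of 5.87, 4.89 and 5.27 in sham and 14.7, 17.9 and 17.7 in BCP libraries. The groups were apart, and the change was 3.15-fold (log2FC 1.65 ± 0.14, SE, edgeR adjusted p = 2.88e-08). No span of a member overlapped the span of another gene in the table, and the nearest neighbour was Acaa1a, 1117 bases from Myd88.

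**Figure D1:**
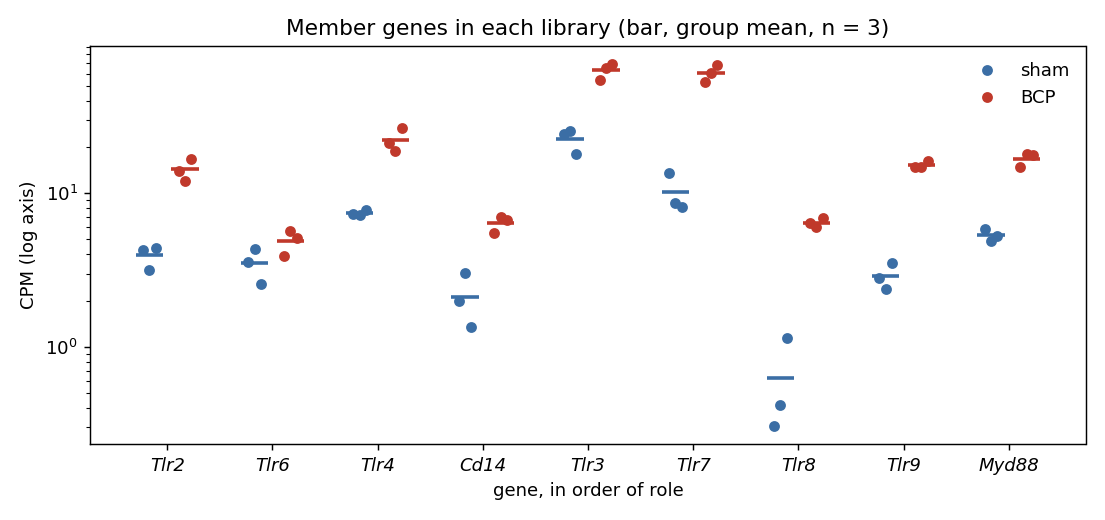
CPM of each member gene in each library on a log axis, with sham libraries in blue, BCP libraries in red and a bar at the mean of 3 libraries. The groups are apart in 8 genes and overlap in Tlr6, and Tlr8 has the lowest sham values, from 0.305 to 1.15.

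**Figure D2:**
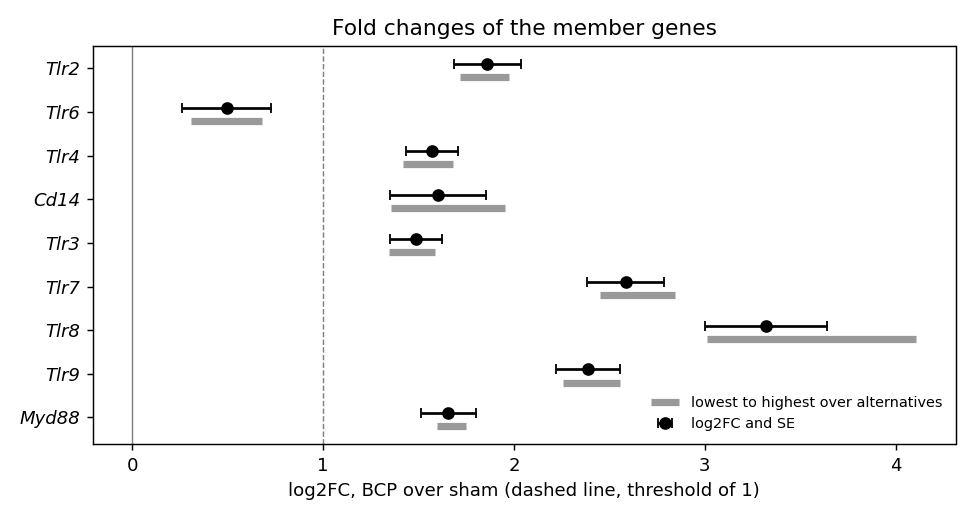
The log2FC of each member gene in BCP over sham (point, with its SE) and the range of the same value over the alternative analyses (grey bar). All genes but Tlr6, at 0.49, stay to the right of the dashed threshold of 1.

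Per gene length, the order of the members differed between the groups at its top and bottom. In the authors' FPKM, Tlr3 was the highest member in sham rats at 4.16 ± 0.739 (SD, n = 3), above Tlr7 at 2.33 ± 0.677 in every library. In BCP rats Tlr7, at 14.3 ± 1.95, stood above Tlr3, at 12 ± 1.5, in each of the 3 libraries, although the ranges over libraries overlapped. Tlr7, Tlr4 and Myd88 followed Tlr3 in sham rats without separating from each other, and Tlr2 and Cd14 came next with overlapping ranges. At the bottom, Tlr8 was the lowest member in sham rats at 0.182 ± 0.134, below Tlr6 at 0.484 ± 0.123. Among BCP rats the top pair was followed by Myd88, Tlr4, Tlr2 and Tlr9, at 6.93, 6.73, 5.59 and 4.76, with overlapping ranges from one to the next, and Cd14 lay below Tlr9 in every library at 3.83 ± 0.507. In BCP rats Tlr6 was the lowest at 0.697 ± 0.136, and Tlr8, at 1.93 ± 0.137, was above it in every library.

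**Figure D3:**
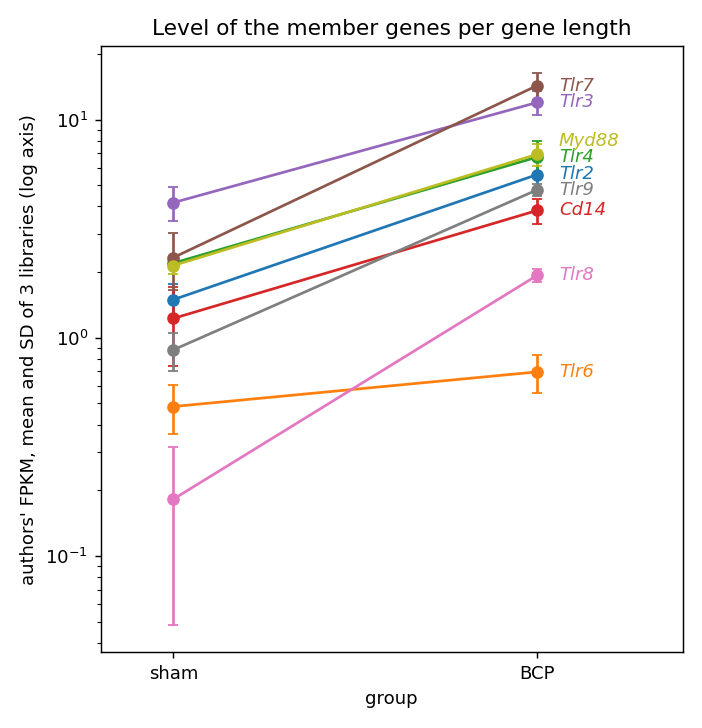
Mean FPKM of each member in sham and BCP rats on a log axis, with the SD over 3 libraries as error bars. The lines of Tlr7 and Tlr3 cross at the top and those of Tlr8 and Tlr6 at the bottom, from 0.182 to 1.93 for Tlr8 and from 0.484 to 0.697 for Tlr6.

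Ratios of members within a library, which do not depend on library size, were compared for 6 pairs. With 3 libraries against 3, the two-sided exact permutation test cannot give a p under 0.1, so none of these could pass 0.05. The CPM ratio of Tlr3 to Tlr7 was 1.80, 2.91 and 2.19 in sham and 1.04, 1.07 and 1.01 in BCP libraries, so the groups did not overlap. The log2 ratio was lower in BCP by 1.11 (value -1.11, two-sided exact permutation p = 0.1, adjusted over the pairs 0.3). The ratio of Tlr2 to Tlr4 was 0.583, 0.433 and 0.565 in sham and 0.664, 0.643 and 0.632 in BCP libraries, also without overlap and with the same exact p-values, for a log2 difference of 0.31. The ratios of Tlr7 to Tlr8, Cd14 to Tlr4, Myd88 to Tlr4 and Tlr9 to Tlr7 overlapped between the groups.

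The genes around the members in the pathway were examined as lists. Of their 75 tested genes 33 rose and 0 fell, where 6.35% of all tested genes were called higher. The median log2FC over those 75 was 0.61. The filter keeps a gene that has counts in 1 group alone, so some of these genes were tested through their BCP counts. With at least 10 counts required in every library 20 rose, and 649 of all genes did. The numbers still tested under that filter are not given here. Of the other Toll-like receptors, Tlr13 and the row named Tlr10 rose, and Tlr5, Tlr11 and Tlr12 had too few counts to be tested. The row named Tlr10 had CPM of 0.839, 1.68 and 1.08 in sham and 20.2, 21.4 and 25.4 in BCP libraries, an 18.4-fold change (log2FC 4.20 ± 0.20, SE, edgeR adjusted p = 3.62e-12). By the spacing given above, that row may hold the start of Tlr1 and end before that of Tlr10. Which receptor rose is therefore not settled here. Tlr13, a rodent receptor for bacterial ribosomal RNA, rose 5.06-fold (log2FC 2.34 ± 0.13, SE, edgeR adjusted p = 6.62e-11).

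Among co-receptors and trafficking proteins, 3 of 8 tested genes rose. They were Unc93b1, the chaperone that carries the nucleic acid receptors to endosomes (4.27-fold, edgeR adjusted p = 5.58e-11), and the partners Ly86 (10.7-fold, 5.50e-11) and Cd180 (5.68-fold, 0.0015). The general chaperones and transport proteins of the list were not called, and Hsp90b1 had a log2FC of 0.09 and Lman1 of 0.11. Of the 7 tested endogenous ligands, 2 rose, or 1 with at least 10 counts in every library, namely Tnc, an extracellular matrix protein (2.07-fold, edgeR adjusted p = 1.90e-07), and S100a8, a calcium-binding protein of myeloid cells, from 1 count over the sham libraries to 48 over the BCP libraries (edgeR adjusted p = 6.20e-05). Hmgb1, a nuclear protein released by dying cells, had a log2FC of 0.19 and was not called.

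Most tested genes of the intracellular steps were not called. Of 4 tested adaptors besides Myd88, Ticam2, which links Tlr4 to Ticam1 (3.0-fold, edgeR adjusted p = 2.29e-04), and Pik3ap1 (5.27-fold, 5.60e-04) rose, and Tirap had a log2FC of 0.46. Of 18 kinases and ubiquitin enzymes, Btk, a kinase of B cells and myeloid cells (8.67-fold, edgeR adjusted p = 9.46e-10), and Map3k8 (3.46-fold, 1.57e-07) rose. Irak4, the first kinase that binds Myd88, had a log2FC of 0.72 with an edgeR adjusted p of 0.00186, below the fold threshold, and Irak1 and Traf6 had log2FC of -0.01 and 0.13. Of 7 transcription factors, Irf5, which acts after Myd88, rose 3.80-fold (edgeR adjusted p = 3.73e-07), while Rela had a log2FC of 0.19. Nfkb1 had a log2FC of 0.92 with an edgeR adjusted p of 3.36e-09, just below the fold threshold. With no threshold on the fold, 45 of the 75 genes were higher and 1, Traf3, was lower (log2FC -0.18), where 15.8% of all tested genes were higher.

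Of 12 inhibitors of the pathway 5 rose, or 3 with at least 10 counts required in every library. Those with the smallest p-values were Ptpn6, a tyrosine phosphatase of blood cells and microglia (8.0-fold, edgeR adjusted p = 3.26e-11), Tnfaip3, an NF-kappa-B inhibitor that is itself an NF-kappa-B target (2.75-fold, 6.43e-08), Lilrb4, from 2 counts over the sham libraries to 92 over the BCP libraries (5.38e-06), and Tnfaip8l2 (5.16-fold, 6.89e-06). Of 5 tested interleukin receptors that also use Myd88, 4 rose, namely Il18rap (8.88-fold, edgeR adjusted p = 1.32e-06), Il1r1 (2.26-fold, 3.16e-05), Il1rl1 (3.21-fold, 1.71e-04) and Il18r1, from 3 counts to 57 in all (7.56e-05). With at least 10 counts in every library 2 of this list rose. Il1rap, the accessory chain of Il1r1 and Il1rl1, had a log2FC of -0.03.

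Of 19 rows for known products of the signalling, 12 were tested and all 12 of these rose, and the other 7, which include 1 of a pair of rows named Tnf, had too few counts. For the reason given above these 12 do not stand for the whole list, and with at least 10 counts in every library 4 rose. The chemokine Ccl2 had CPM of 0.153, 0.279 and 0.270 in sham and 8.62, 8.0 and 7.27 in BCP libraries (edgeR adjusted p = 2.11e-10). The chemokine Ccl4 went from 2 counts over the sham libraries to 147 over the BCP libraries (edgeR adjusted p = 5.98e-08). The costimulatory molecules Cd80 and Cd86 rose 7.73-fold and 8.30-fold (edgeR adjusted p = 7.34e-09 and 1.75e-08). Il6 and Il10 were among those left out, and Cxcl2 had 0 counts in every library.

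**Figure D4:**
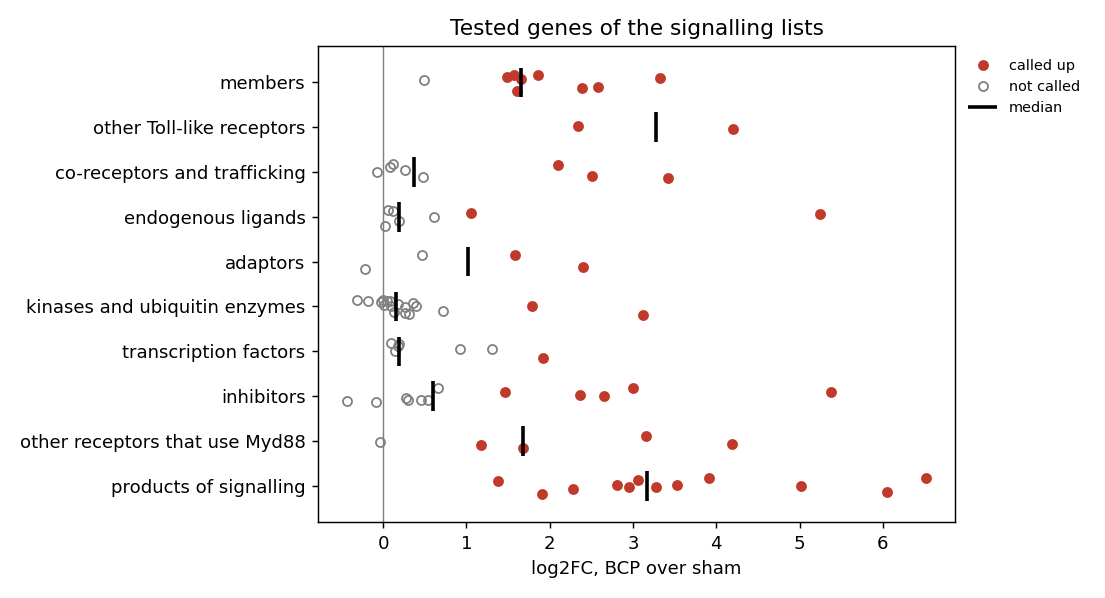
The log2FC of every tested gene in each list, with called genes as filled red points, other genes as open points and the median of the list as a black bar. Points of the products list lie between 1.38 and 6.52, and the median of the 18 kinases and ubiquitin enzymes is 0.15.

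Markers of microglia moved with the members. The summed CPM of 9 markers of homeostatic microglia was 371 ± 31.9 in sham and 680 ± 57.4 in BCP rats (SD, n = 3). The ratio of the group means on the log scale was 1.83. Of 8 tested genes in that list 2 rose, Cx3cr1 and Csf1r, the median log2FC was 0.31 and Siglech was at 0 in every library. The summed CPM of 8 markers shared by microglia and macrophages was 125 ± 25.1 in sham and 645 ± 79.5 in BCP rats. Their ratio, also of means on the log scale, was 5.19, and 7 of the 8 rose. Of the 4 tested markers of border macrophages and monocytes 0 rose, with a median log2FC of -0.21, and Ccr2 had 0 counts in sham and 3 in BCP libraries over the group.

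Among markers of blood cells, those of T cells were higher, and most of those of neutrophils and B cells could not be tested. The summed CPM of 6 T cell markers ranged from 0.878 to 1.98 in sham and from 23.3 to 35.6 in BCP libraries. All 6 were called higher, but all except Lck had 7 counts or fewer over the sham libraries and so reached the test through the BCP libraries. The summed CPM of 7 neutrophil markers was 8.65 to 10.1 in sham and 29.3 to 34.2 in BCP libraries, most of it Csf3r, which microglia also express. Of this list Csf3r and S100a8 were tested and called higher, S100a8 through its BCP counts. No B cell marker had enough counts to be tested. Of 4 astrocyte markers 0 were called and their directions differed, with log2FC of 0.80 for Gfap, -0.37 for Slc1a2 and -0.26 for Aldh1l1 (edgeR adjusted p = 5.27e-05, 1.65e-06 and 0.0123), all below the fold threshold. BCP library 1 stood apart in Aqp4, the other astrocyte marker, at 2415 CPM against 360 and 362 in the other BCP libraries and 354 to 379 in sham libraries. Oligodendrocyte markers summed to 35215 to 40356 CPM in sham and 25116 to 28116 in BCP libraries, with 0 of 4 called at a median log2FC of -0.45. Neuron markers had a median log2FC of -0.09, with 0 of 5 called. The part of these cells in the change of the members was not tested.

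Set against the homeostatic microglia markers of the same library, 8 members were still higher in every BCP library than in any sham library. The share of all tested genes with this ordering was not computed for this ratio. The ratios of the group means on the log scale ran from 1.54-fold for Tlr3 to 6.65-fold for Tlr8 (two-sided exact permutation p = 0.1 each, the smallest that 3 against 3 can give, and 0.112 adjusted over the members). For Tlr7 the level was 34.3, 22.7 and 24.4 CPM per 1000 CPM of these markers in sham and 82.2, 92.2 and 91.5 in BCP libraries. Without sham library 3 the log2 difference of Tlr8 was 3.37 in place of 2.73. Tlr6 had a log2 difference of -0.37, with overlapping groups.

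Set against the markers shared by microglia and macrophages, the direction turned for Tlr2, Tlr3, Tlr4, Cd14 and Myd88. Relative to that list Tlr3, Tlr4, Tlr6, Cd14 and Myd88 were lower in every BCP library than in any sham library, with log2 differences of -0.88, -0.82, -1.88, -0.71 and -0.73 (two-sided exact permutation p = 0.1 each, and 0.18 adjusted over the members). For this ratio too, the share of all tested genes so ordered was not computed. Tlr2, Tlr7, Tlr8 and Tlr9 had log2 differences of -0.51, 0.23, 1.23 and 0.036 with overlapping groups. For Tlr9 the level was 19.5, 17.7 and 36.2 CPM per 1000 CPM of these markers in sham and 26.0, 23.2 and 22.4 in BCP libraries. The direction of most members relative to microglial markers thus depended on the marker list.

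**Figure D5:**
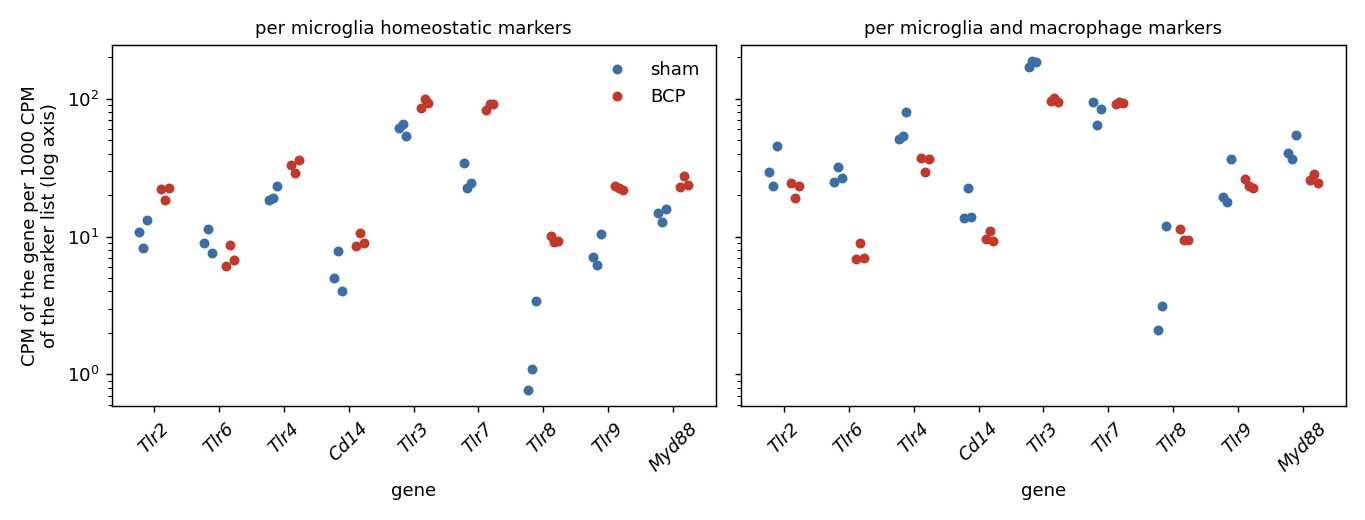
CPM of each member per 1000 CPM of summed markers in each library, on a log axis, for markers of homeostatic microglia (left) and markers shared by microglia and macrophages (right). On the left 8 genes are higher in BCP (red) than in sham (blue), and on the right 5 genes are lower without overlap.

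The lncRNA table was searched for transcripts beside the members. Within 10 kb there was 1, NONRATT028149.2, 711 bases from Myd88, with raw counts of 5, 0 and 7 in sham and 8, 7 and 7 in BCP libraries, too few to be tested. Within 100 kb there were 36, of which 15 were tested and 2 rose, where 1.14% of all tested lncRNAs were called higher. NONRATT009371.2, 18220 bases from Tlr6 and inside the span of the Tlr10 row, had counts of 2, 0 and 3 in sham and 25, 34 and 35 in BCP libraries (log2FC 4.27 ± 0.55, SE, edgeR adjusted p = 0.00982). ENSRNOT00000080979, 17244 bases from Cd14, had counts of 9, 16 and 8 in sham and 57, 47 and 46 in BCP libraries (log2FC 2.32 ± 0.33, SE, edgeR adjusted p = 0.0139). These 2 lie outside the 10 kb window and were singled out after their values were seen. Both lost the call when the replicate number was a block (adjusted p = 0.0657 and 0.0709, edgeR) and without BCP library 3 (0.0523 and 0.0548), and the second also without sham library 1 (0.0569) or sham library 3 (0.0504). Whether the counting used strand is not given in the sources used here, so reads of NONRATT009371.2 and of the Tlr10 row cannot be told apart.

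The genes whose levels followed a member most closely over the 6 libraries, by Pearson's r of log2(CPM + 0.5), all had an r of 0.996 or more, most of which the difference between the groups sets. For Tlr2 they were C5ar2 and Mfng, for Tlr4 LOC100360150 and Ezh2, for Tlr3 Slfn2 and Sectm1a, and for Tlr7 Akap13 and Tmem150b. For Tlr8 they were Rpusd3 and Ccdc109b, for Tlr9 Dusp6 and Aldh3b1, for Cd14 Angpt4 and Kars, and for Myd88 Slc15a3 and AABR07000121.1.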

How the data were processed

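RNA-seq was performed on 3 BCP and 3 sham libraries, grouped by the labels. Seqtk filtering, HISAT2 2.0.4 alignment to Rnor_6.0 and StringTie 1.3.0 were run by the authors, who deposited raw counts and FPKM values for each gene and lncRNA. The tool that made the counts is not given in the sources used here.

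Tests on the counts used edgeR 4.0.16 (R 4.3.3, filterByExpr, TMM normalization, robust quasi-likelihood fit on group, Benjamini-Hochberg adjustment over all genes or all lncRNAs tested), with an adjusted p under 0.05 and an absolute log2FC over 1. SE is the absolute log2FC divided by the square root of the F statistic. CPM used the TMM library sizes. Ratios were compared with two-sided exact permutation tests. FPKM served only for levels per length. DESeq2 1.42.0 was an alternative, and the others were filters, scalings, the replicate block and each library left out. The code was tested on simulated data. Promoters came from RefSeq, GRCr8. Figures were drawn with matplotlib 3.10.9.

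All members are given in full, and from each pathway list the called genes, up to 4 with the smallest p-values, with other genes named for their role after their values were seen. Members and lists were chosen with earlier results of these data known. Marker lists also covered dendritic cells (0 of 2 tested genes called), fibroblasts (0 of 3) and epithelium (0 of 1, summed CPM 1.14 to 2.09 in sham and 2.00 to 2.54 in BCP libraries). Protein sequences were not analysed here. Depth is the total count per library, and reads without molecular identifiers are not independent molecules.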

Additional observations from a re-analysis of the deposited data

How the results depend on the processing

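The 8 members called higher were called under every alternative that tested them, and Tlr6 under none, where its adjusted p ranged from 0.0536 to 0.405 (edgeR or DESeq2). With at least 10 counts in every library Tlr8 was not tested, and 7 members were called. Over the alternatives the log2FC of Tlr8 ranged from 3.01 to 4.11 and that of Cd14 from 1.36 to 1.95. That filter on counts left 20 of the pathway genes called higher in place of 33, and 6 of all genes called lower in place of 16, against 37 with no filter. With no threshold on the fold change 2352 genes were higher and 1805 lower, and 1 pathway gene was lower. Leaving out 1 library gave 16 to 33 genes called lower, with 33 without BCP library 1 and 25 without sham library 2. Within 100 kb of a member 2 lncRNAs were called, against 0 within 10 kb.

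Against markers shared by microglia and macrophages in place of homeostatic markers, the log2 difference turned to -0.51 for Tlr2, -0.88 for Tlr3, -0.82 for Tlr4, -0.71 for Cd14 and -0.73 for Myd88. With both lists summed, an alternative chosen after seeing the data, no direction turned, but those 5 differences were smaller. For Tlr2, Tlr3, Tlr4, Cd14 and Myd88 they were 0.45, 0.075, 0.14, 0.25 and 0.23, in place of 0.99, 0.62, 0.68, 0.80 and 0.78. For Tlr7, Tlr8 and Tlr9 they were 1.19, 2.19 and 0.99, and for Tlr6 -0.92. Leaving out 1 library, the log2 difference of Cd14 to Tlr4 ranged from -0.20 to 0.42, that of Myd88 to Tlr4 from -0.071 to 0.19 and that of Tlr9 to Tlr7 from -0.44 to 0.088, and the sign turned without BCP library 2 (Cd14 and Myd88) and without sham library 3 (Cd14 and Tlr9).

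Same-numbered libraries showed no broad shared shift, as their deviations correlated at -0.110, 0.0543 and -0.0353 over 14908 genes. With 3 libraries per group these values cannot exclude that libraries were handled in pairs. With the replicate block 907 genes were called higher in place of 946, and 8 members. The lowest sham values, such as 4 counts of Tlr8, limit how closely its fold change is known. The cause of each change was not tested.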
